A study of Homo sapiens with 36 samples.

Results

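Interferon-stimulated genes are the genes that cells switch on when an interferon binds its receptor, and 43 of them, given by symbol, were followed here through a drug experiment in 3 acute myeloid leukemia cell lines. They were listed by name, and the list was chosen with earlier results of these data known. Of these symbols, 42 had transcripts matched to a gene, out of 59041 genes in all, and 1 symbol was not analysed here. Total RNA was sequenced from HL60, MOLM13 and OCIAML3, which are established leukemia lines. Each line was grown for 24 h with cytarabine at 0.1 µM, with daunorubicin at 0.02 µM, with both drugs together (the combination, at the same doses) or with DMSO, the solvent control. Cytarabine is a cytosine nucleoside analogue that is built into DNA, while daunorubicin, an anthracycline, slips between DNA bases and blocks topoisomerase II. Each of the 12 groups held 3 libraries labelled as biological replicates, 36 in all. The sources do not say whether the replicates came from separate cultures or days, so p-values measure only the spread between these libraries, which may be technical.

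Type I and type III interferons act through receptor-bound kinases that switch on a transcription factor complex holding STAT2 and IRF9, which binds a DNA element called the ISRE, the interferon-stimulated response element. Type II interferon acts mainly through another element, the GAS. The products of the target genes bind or cut viral RNA, tag proteins with ISG15, build antiviral GTPase assemblies and feed back on the pathway.

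The promoters show what the members have in common outside this experiment. A window of 300 bases around each transcription start (250 before, 50 after) was searched on both strands for the ISRE core (TTTC, any 2 bases, TTTC) and for the GAS core (TTC, any 3 bases, GAA) in the RefSeq promoter sequences of GRCh38.p14. The table held 34 of the 42 members. The ISRE core was found in 25 of these 34 (73.5%), against 4.38% of 27305 genes in the table. The GAS core was found in 10 of 34 (29.4%), against 9.38% of all genes. In 4 members (BST2, EPSTI1, IFI27 and MX1) an ISRE match and a GAS match overlapped. A match is a description of the letters and not evidence that a factor was bound.

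These windows are shown because their genes carry the results that follow or, for PARP9, because the same 10 bases also lie at the start of DTX3L on the other strand. Capitals mark 1 matched core per gene (GAS in IRF1, ISRE in the others, with further matches in the IFIT1 and BST2 windows left in lower case), sequences run 5′ to 3′ on the gene's strand, and all are from RefSeq, GRCh38.p14. GBP1 is at chr1:89065311-89065350 (minus strand), OAS3 at chr12:112938316-112938355 (plus), RSAD2 at chr2:6877617-6877656 (plus), LGALS3BP at chr17:78979957-78979996 (minus), IFI6 at chr1:27672324-27672363 (minus), IFIT1 at chr10:89392492-89392531 (plus), BST2 at chr19:17405736-17405775 (minus), PARP9 at chr3:122564317-122564356 (minus) and IRF1 at chr5:132490874-132490912 (minus).
GBP1: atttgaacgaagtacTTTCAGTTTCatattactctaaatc
OAS3: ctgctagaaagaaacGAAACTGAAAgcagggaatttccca
RSAD2: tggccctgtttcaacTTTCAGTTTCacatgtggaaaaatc
LGALS3BP: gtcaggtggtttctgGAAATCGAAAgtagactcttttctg
IFI6: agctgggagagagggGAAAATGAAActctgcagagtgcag
IFIT1: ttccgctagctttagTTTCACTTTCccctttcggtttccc
BST2: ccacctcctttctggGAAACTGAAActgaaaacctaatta
PARP9: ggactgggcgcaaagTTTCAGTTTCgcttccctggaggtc
IRF1: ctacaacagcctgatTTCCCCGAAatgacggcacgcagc

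Of the 25 members with an ISRE match, 15 passed the thresholds in at least 1 comparison of a treatment with DMSO described below, and so did 8 of the 9 members whose window held none (CMPK2, HERC6, IFI35, IRF1, OAS1, SAMD9L, STAT2 and XAF1, but not SP100), against 35.4% of all genes tested in any line. That no match was found says only that these letters are not in this window.

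The libraries held between 25067734 and 47322144 estimated counts (median 32194478). HOXA9, HOXA10 and MEIS1, which mark MOLM13 and OCIAML3, summed to 173 to 253 CPM (counts scaled to the effective size of the library) in MOLM13 and 270 to 306 CPM in OCIAML3, against at most 0.0585 CPM in HL60. Markers of plasmacytoid dendritic cells, the professional interferon producers, summed to at most 1.09 CPM in any library. In HL60 the 6 myeloid markers summed to 1637 to 2202 CPM after cytarabine, 3852 to 6367 CPM after daunorubicin and 1035 to 1401 CPM after the combination, against 5083 to 6862 CPM in DMSO. The single markers did not move alike. Over all 12 HL60 libraries MPO ranged from 476 to 4016 CPM and PRTN3 from 0 to 2045 CPM. CD33 ranged only from 60.6 to 92.6 CPM, SPI1 from 155 to 220 CPM and CEBPA from 278 to 621 CPM. ELANE stayed at or below 0.397 CPM throughout. The 3 B cell markers summed to 8.48 to 9.58 CPM after cytarabine and 9.25 to 11.6 CPM after the combination in HL60, against 2.03 to 2.37 CPM in DMSO, with CD79A at up to 9.17 CPM and MS4A1 at 0 in all 12 HL60 libraries. The sums of these lists moved with the treatments in HL60, and their part in the results was not tested. In bulk RNA, fewer cells of a type and less RNA per cell cannot be told apart.

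A pair of OCIAML3 libraries went against their labels. On a score over 680 genes that are no members, in which the mean DMSO library lies at 0 and the mean daunorubicin library at 1, the library labelled combination replicate 3 lay at 0.0535, among the DMSO libraries (-0.0653 to 0.0554), while combination replicates 1 and 2 lay at 1.20 and 1.02. The library labelled cytarabine replicate 3 lay at 0.573, against 0.170 and 0.145 for cytarabine replicates 1 and 2. The daunorubicin libraries lay at 1.28, 1.02 and 0.698. The genes were those called between OCIAML3 daunorubicin and DMSO, by the thresholds given below, without combination replicate 3 and cytarabine replicate 3. The distance between DMSO and daunorubicin on the score was thus set by this choice of genes. OCIAML3 results are therefore given with and without these 2 libraries.

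Before treatment the members differed widely between the lines. BST2, also called tetherin, which holds budding virions at the membrane, had the highest level per length in each line, with 182 ± 11.6 TPM (transcript abundance scaled by length and depth) in HL60, 145 ± 42.2 TPM in MOLM13 and 379 ± 2.18 TPM in OCIAML3 DMSO libraries (SD, n = 3 each). Behind it in HL60 came ISG15, the ubiquitin-like modifier, at 27.3 ± 4.15 TPM, PLSCR1, a phospholipid scramblase, at 23.4 ± 1.39 TPM, SP100, a nuclear body protein, at 20.7 ± 1.03 TPM, IRF1, a transcription factor, at 20.0 ± 2.02 TPM, and EIF2AK2, the kinase PKR, at 17.1 ± 2.71 TPM. Neighbours in this order overlapped between libraries, apart from BST2 and ISG15 and from PLSCR1 and SP100. In MOLM13, PLSCR1 (35.5 ± 3.87 TPM), TRIM22, a RING-finger antiviral protein (31.3 ± 13.4 TPM), and SP100 (27.0 ± 0.552 TPM) came next, and the wide TRIM22 range covered that of SP100. In OCIAML3, TRIM22 (84.1 ± 4.69 TPM), IRF1 (51.0 ± 6.73 TPM), IFI6, a small mitochondrial and membrane protein (41.5 ± 7.87 TPM), and MX2, an interferon-induced GTPase (31.7 ± 0.421 TPM), followed BST2. The summed level of the members was 357 TPM in HL60, 413 TPM in MOLM13 and 820 TPM in OCIAML3, and 23, 16 and 11 members in that order of lines lay under 1 TPM.

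**Figure D1:**
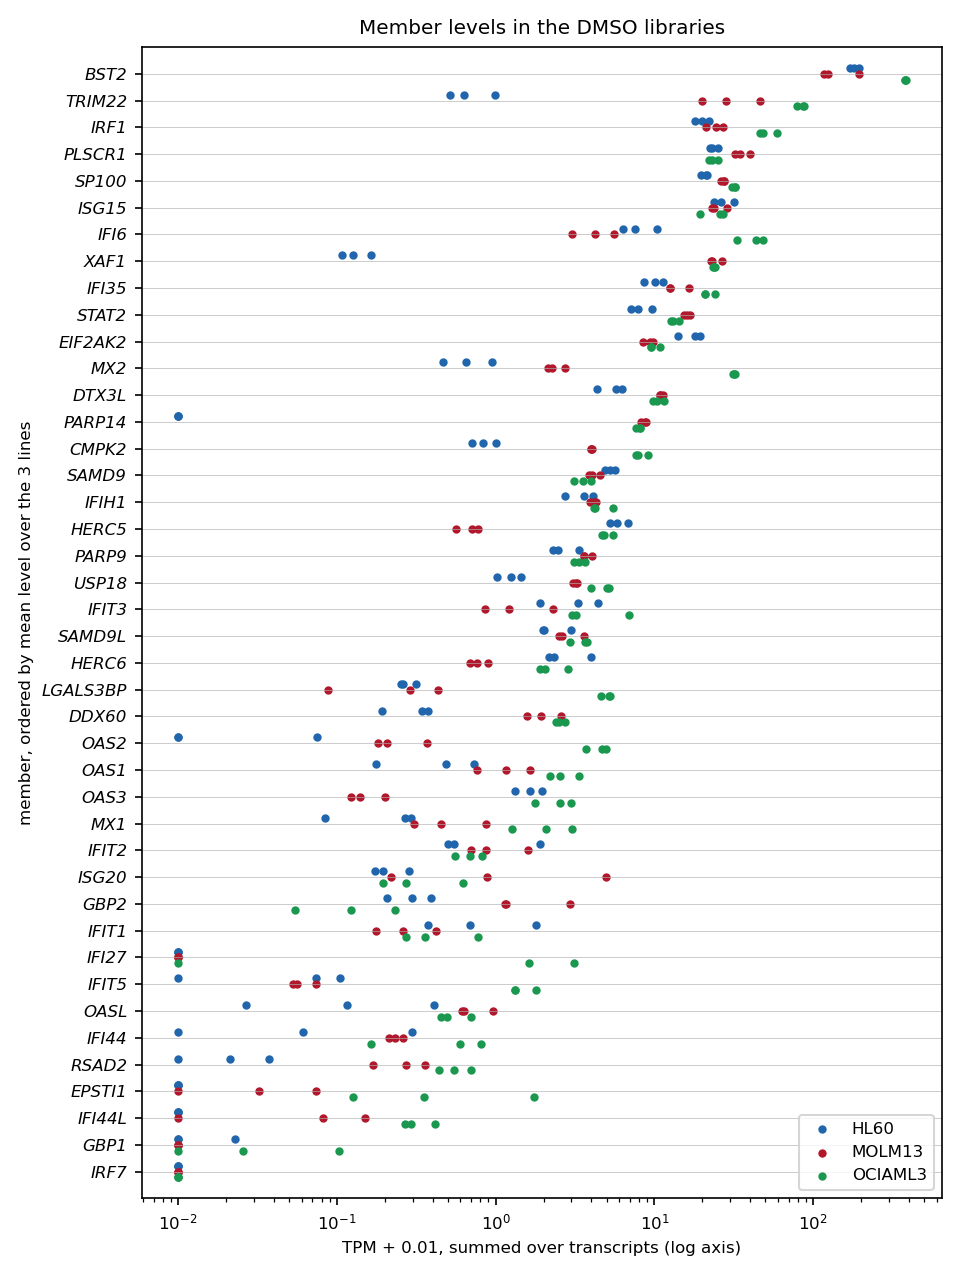
Levels of the 42 members in the DMSO libraries of HL60, MOLM13 and OCIAML3, in TPM + 0.01 on a log axis. Each point is 1 library. BST2 is highest in every line, and TRIM22, XAF1 and PARP14 lie lower in HL60 than in the other lines.

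The DMSO levels were compared over all 36 libraries with edgeR's quasi-likelihood test and Benjamini-Hochberg adjustment over all genes (the edgeR test), calling members whose adjusted p was under 0.05 and whose log2 difference was over 1 in size. Between HL60 and MOLM13, 5 of 41 tested members were higher in HL60 and 13 were lower, against 9.32% of all genes higher and 20.2% lower. Between HL60 and OCIAML3, 2 members were higher and 17 lower in HL60 (12.5% and 24.5% of all genes). Between MOLM13 and OCIAML3, 2 were higher and 14 lower in MOLM13 (13.3% and 16.7% of all genes). In both comparisons with OCIAML3, most called members had their higher level in OCIAML3.

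PARP14, an ADP-ribosyltransferase that works with STAT6 and in the interferon response, had no count in any HL60 DMSO library, against means of 59.2 CPM in MOLM13 and 43.3 CPM in OCIAML3. With 3 counts as the floor over the group, HL60 was at least 1684-fold lower than MOLM13 and at least 1372-fold lower than OCIAML3. PARP14 stayed at or below 0.134 CPM in HL60 after every treatment, below every library of the other lines. TRIM22 averaged 1.12 CPM in HL60, 55.9 CPM in MOLM13 and 118 CPM in OCIAML3. XAF1, a binding partner of the apoptosis inhibitor XIAP, averaged 0.385 CPM in HL60, 56.3 CPM in MOLM13 and 42.5 CPM in OCIAML3. Set between HL60 and MOLM13, the log2 difference was -5.65 ± 0.39 for TRIM22 and -7.19 ± 0.30 for XAF1 (SE, edgeR adjusted p = 2.28e-13 and 2.93e-18). In the other direction, HERC5, the main ligase for ISG15, averaged 20.5 CPM in HL60 and 2.16 CPM in MOLM13, and OAS3, an oligoadenylate synthetase that activates RNase L, averaged 5.43 CPM in HL60 and 0.599 CPM in MOLM13. GBP2, a guanylate-binding GTPase, was lowest in OCIAML3, with means of 1.06 CPM in HL60, 4.89 CPM in MOLM13 and 0.253 CPM in OCIAML3. BST2 and TRIM22 lost their call between MOLM13 and OCIAML3 without MOLM13 DMSO replicate 1 (BST2 also without replicate 3).

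Treatment was then set against DMSO within each line, with the 12 libraries of the line in 1 fit and the same thresholds. In HL60, 20 of 36 tested members rose after cytarabine and none fell, against 13.7% of all tested genes that rose and 3.12% that fell. After daunorubicin 10 rose and 0 fell (6.76% and 0.538% of all genes), and after the combination 22 rose and 0 fell (17% and 6.29%). The median log2 fold change of the members was 1.13, 0.76 and 1.42 in the same order of treatments, while the median over all genes was at most 0.04. The 3 comparisons share their DMSO libraries and are not independent of each other. With the replicate number as a block, which HL60 libraries follow, IFIT5 (1.76, edgeR adjusted p = 0.0172) and MX1 (1.14, 0.0129) also passed after daunorubicin, and IFIT2 (1.56, 0.000594) and OASL (1.93, 0.0126) after the combination.

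**Figure D2:**
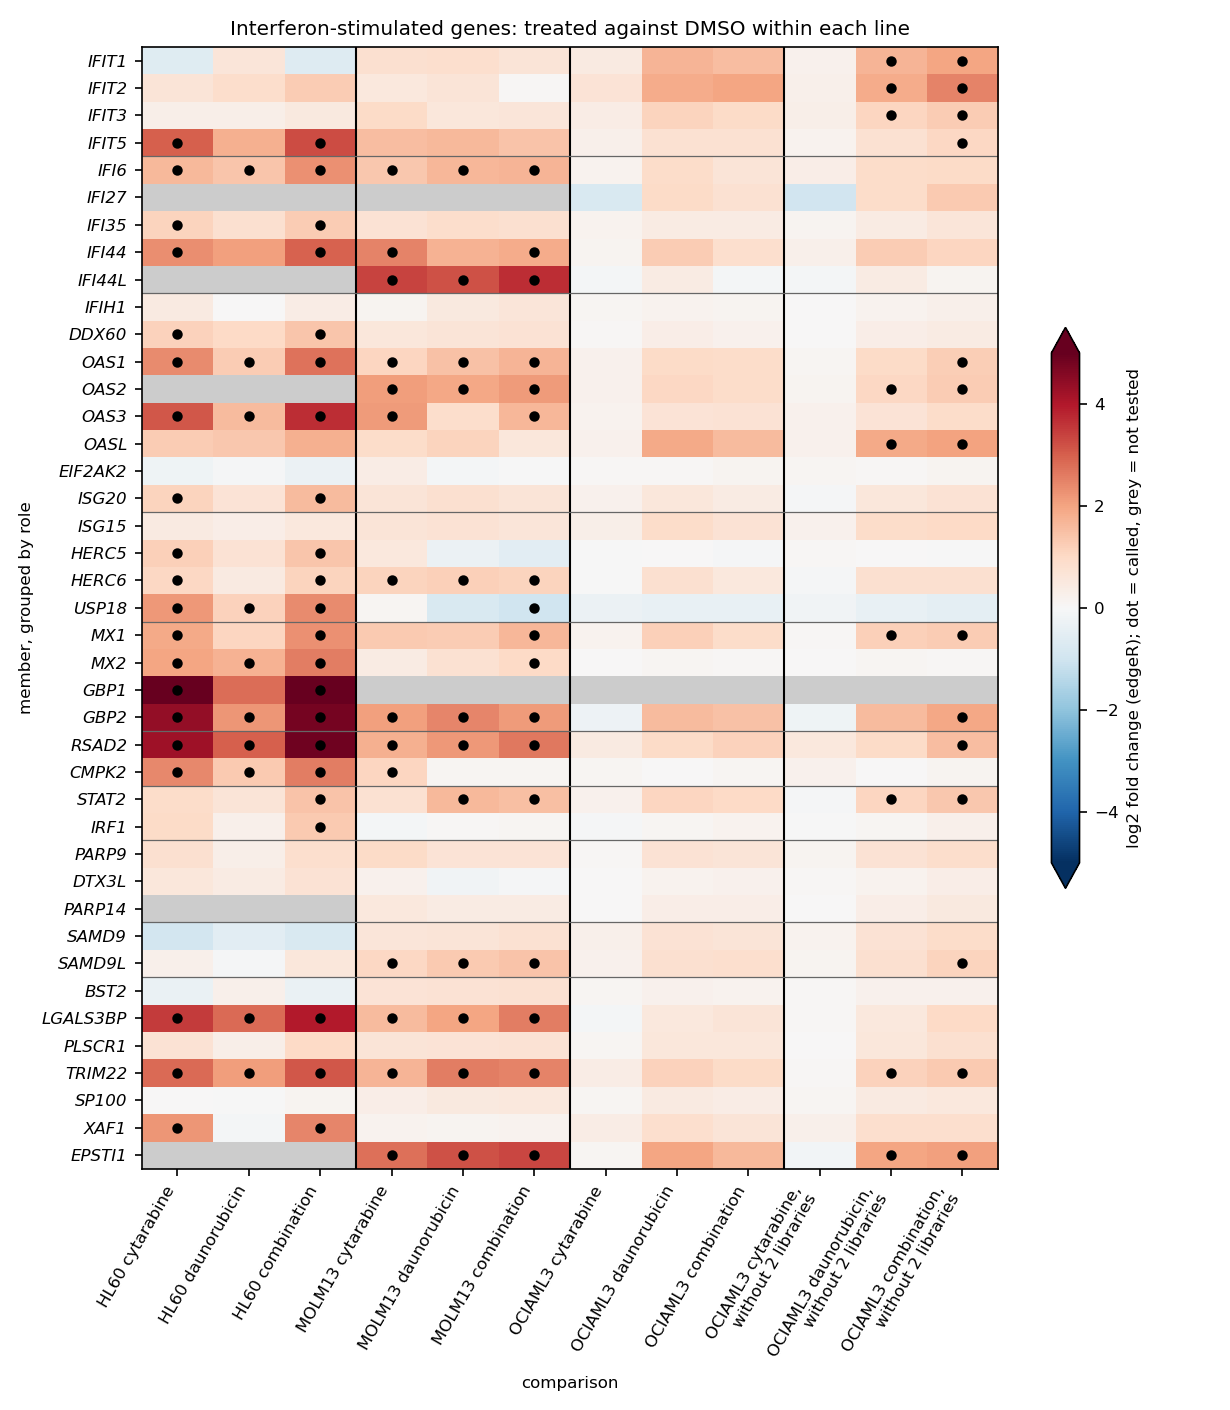
The log2 fold change against DMSO of 41 members (rows, by role) in each line and treatment (columns), with OCIAML3 shown with all libraries and without 2 libraries. Red is higher and blue lower than DMSO, a dot marks a member past both thresholds and grey marks a member not tested. HL60 holds the strongest colors, OCIAML3 has no dot with all its libraries, and the IFIT genes are dotted mainly in OCIAML3.

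In HL60 all 4 GTPases rose after cytarabine and the combination. GBP2 had 23.7, 22.2 and 23.4 CPM after cytarabine, 6.27, 6.30 and 2.65 CPM after daunorubicin and 26.6, 32.7 and 31.8 CPM after the combination, against 1.49, 0.696 and 1.10 CPM in DMSO. Every treated library lay above every DMSO library, and daunorubicin replicate 3 was the lowest of the treated ones. The log2 fold changes were 4.40, 2.22 and 4.80, each with an SE of 0.32 (edgeR adjusted p = 1.58e-06, 0.000492 and 5.31e-07). GBP1, another guanylate-binding protein known for strong induction by type II interferon, summed to 62 counts after cytarabine and 135 after the combination, against 1 count in DMSO. The ratios of summed counts were 63.1 (95% counting interval 10.9 to 2531) and 125 (22 to 4957). These ratios are scaled by the total counts of the libraries and not by their effective sizes, so they differ from ratios of CPM. The intervals cover counting error only. GBP1 summed to 10 counts after daunorubicin and did not pass (edgeR adjusted p = 0.11). MX2 had 8.02, 8.49 and 6.87 CPM after cytarabine, 8.78, 6.75 and 4.30 CPM after daunorubicin and 12.4, 13.2 and 9.31 CPM after the combination, against 2.10, 2.30 and 1.58 CPM in DMSO. Its groups did not overlap with DMSO, at log2 fold changes of 1.97, 1.73 and 2.55 (SE 0.26 each). Its relative MX1 rose by 1.90 after cytarabine and 2.28 after the combination.

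RSAD2, or viperin, which makes a chain-terminating nucleotide, and its neighbour CMPK2, a mitochondrial nucleotide kinase, have starts 1078 bases apart on opposite strands of chromosome 2. RSAD2 had 0.587, 0.933 and 0.731 CPM after cytarabine, 0.435, 0.369 and 0.108 CPM after daunorubicin and 1.42, 1.42 and 0.629 CPM after the combination, against 0, 0.0696 and 0.0343 CPM in DMSO. These are 73, 28 and 129 counts over each treated group, against 3 counts over DMSO. The ratios of these counts, again scaled by total counts only, were 24.8 (8.14 to 123), 9.15 (2.83 to 47.1) and 39.7 (13.3 to 195). All treated libraries lay above DMSO, but the daunorubicin call was lost when DMSO replicate 1 or 3 or daunorubicin replicate 1 or 2 was left out. CMPK2 had 10.6, 9.70 and 12.8 CPM after cytarabine, 5.62, 5.96 and 3.87 CPM after daunorubicin and 11.4, 11.6 and 13.2 CPM after the combination, against 2.48, 1.60 and 2.09 CPM in DMSO. Cytarabine alone and the combination overlapped, and the daunorubicin libraries lay between them and DMSO (log2 fold changes 2.42, 1.33 and 2.55, SE 0.22 each). The exons of RSAD2 and CMPK2 overlap on opposite strands and the libraries were unstranded, so reads in the overlap cannot be told apart.

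Of the 7 tested RNA sensors and RNA-acting enzymes, in HL60 4 rose after cytarabine, 2 after daunorubicin and 4 with both drugs. OAS3 had 40.1, 48.3 and 57.0 CPM after cytarabine, 16.2, 23.1 and 11.6 CPM after daunorubicin and 52.3, 86.7 and 78.4 CPM after the combination, against 5.08, 5.84 and 5.94 CPM in DMSO. The DMSO libraries sat close together and every treated library lay above them, at log2 fold changes of 3.11 ± 0.25, 1.60 ± 0.25 and 3.69 ± 0.26 (SE). OAS1, the shortest of the synthetases, rose by 2.38, 1.27 and 2.72, and its daunorubicin call was lost when DMSO replicate 1 or 2 or daunorubicin replicate 1 or 2 was left out. DDX60, a helicase, rose by 1.13 and 1.40 after cytarabine and the combination, and ISG20, an exonuclease, by 1.12 and 1.59. The cytarabine calls of DDX60 and ISG20 were lost without cytarabine replicate 1 or DMSO replicate 2, among others (DDX60 also without DMSO replicate 3 or cytarabine replicate 3, ISG20 without DMSO replicate 1, daunorubicin replicate 1 or cytarabine replicate 2). PKR was not called, with 103, 106 and 119 CPM after cytarabine and 90.8, 96.8 and 118 CPM after the combination, against 115, 127 and 136 CPM in DMSO. IFIH1, the sensor MDA5, did not pass in any HL60 comparison.

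All 3 tested small IFI proteins rose in HL60 after cytarabine and the combination, and 1 after daunorubicin. IFI6 had 14.0, 16.3 and 10.3 CPM after cytarabine, 12.5, 13.6 and 8.35 CPM after daunorubicin and 22.4, 27.2 and 16.1 CPM after the combination, against 6.11, 3.79 and 3.43 CPM in DMSO. All treated libraries were higher, and the log2 fold changes were 1.61 ± 0.27, 1.37 ± 0.27 and 2.30 ± 0.28 (SE, edgeR adjusted p = 0.000424, 0.0041 and 1.75e-05). IFI35, a partner of NMI, rose by 1.13 and 1.28 after cytarabine and the combination, and IFI44, at or below 0.641 CPM, by 2.32 and 2.94. IFI44 lost its cytarabine call under 8 alternatives, 7 of which left out 1 library, and IFI35 lost it without cytarabine replicate 1 or DMSO replicate 2. Of the RNA-binding IFIT proteins, IFIT2 did not pass in HL60, but after the combination it passed with the replicate block, as given above, with no filter on low counts (1.28) and without DMSO replicate 1 (2.25). IFIT5 rose, with 1.79, 1.65 and 0.936 CPM after cytarabine and 2.35, 2.05 and 0.850 CPM after the combination, against 0.229, 0.313 and 0 CPM in DMSO (log2 fold changes 2.99 ± 0.75 and 3.26 ± 0.75, SE). IFIT1 had 3.98, 1.34 and 2.19 CPM after cytarabine and 11.7, 2.58 and 3.30 CPM after daunorubicin, against 7.44, 2.57 and 1.44 CPM in DMSO. Replicate 1 was the highest library in each of these groups, and the groups overlapped.

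The remaining HL60 members were the ISG15 system, the transcription factors and a mixed set of effectors. ISG15 itself did not pass, with 20.9, 17.2 and 13.5 CPM after the combination, against 15.4, 10.4 and 10.5 CPM in DMSO. Its ligase HERC5 had 48.9, 49.2 and 46.9 CPM after cytarabine and 53.2, 55.6 and 56.3 CPM after the combination, against 25.2, 17.8 and 20.6 CPM in DMSO (log2 fold changes 1.19 and 1.38). USP18, the protease that removes ISG15 and an inhibitor of the type I receptor, rose by 2.18, 1.17 and 2.35 after the 3 treatments. HERC6, a related ligase, rose by 1.05 and 1.12 after cytarabine and the combination, lost without cytarabine replicate 3 or DMSO replicate 2 and without combination replicate 3. STAT2 and IRF1 passed after the combination (1.44 and 1.31) and not after either drug alone, and the combination was not tested against the single drugs. LGALS3BP, a secreted glycoprotein, had 4.89, 5.91 and 6.06 CPM after cytarabine, 3.26, 5.28 and 2.08 CPM after daunorubicin and 8.10, 8.66 and 6.73 CPM after the combination, against 0.496, 0.487 and 0.515 CPM in DMSO. TRIM22 had 9.09, 9.27 and 6.44 CPM, then 6.13, 5.56 and 3.01 CPM, then 10.5, 10.1 and 9.0 CPM in the same order, against 1.49, 1.08 and 0.893 CPM in DMSO. Both rose in all 3 comparisons with no overlap (log2 fold changes 3.48, 2.82 and 3.96 for LGALS3BP and 2.84, 2.09 and 3.10 for TRIM22). XAF1 rose after cytarabine and the combination (2.19 and 2.43) but stayed at or below 2.58 CPM, far under its level in the other lines. SAMD9, an antiviral growth inhibitor, had 15.6, 20.1 and 21.7 CPM after cytarabine, against 39.97, 34.2 and 33.4 CPM in DMSO, a log2 fold change of -0.91, under the fold threshold.

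**Figure D3:**
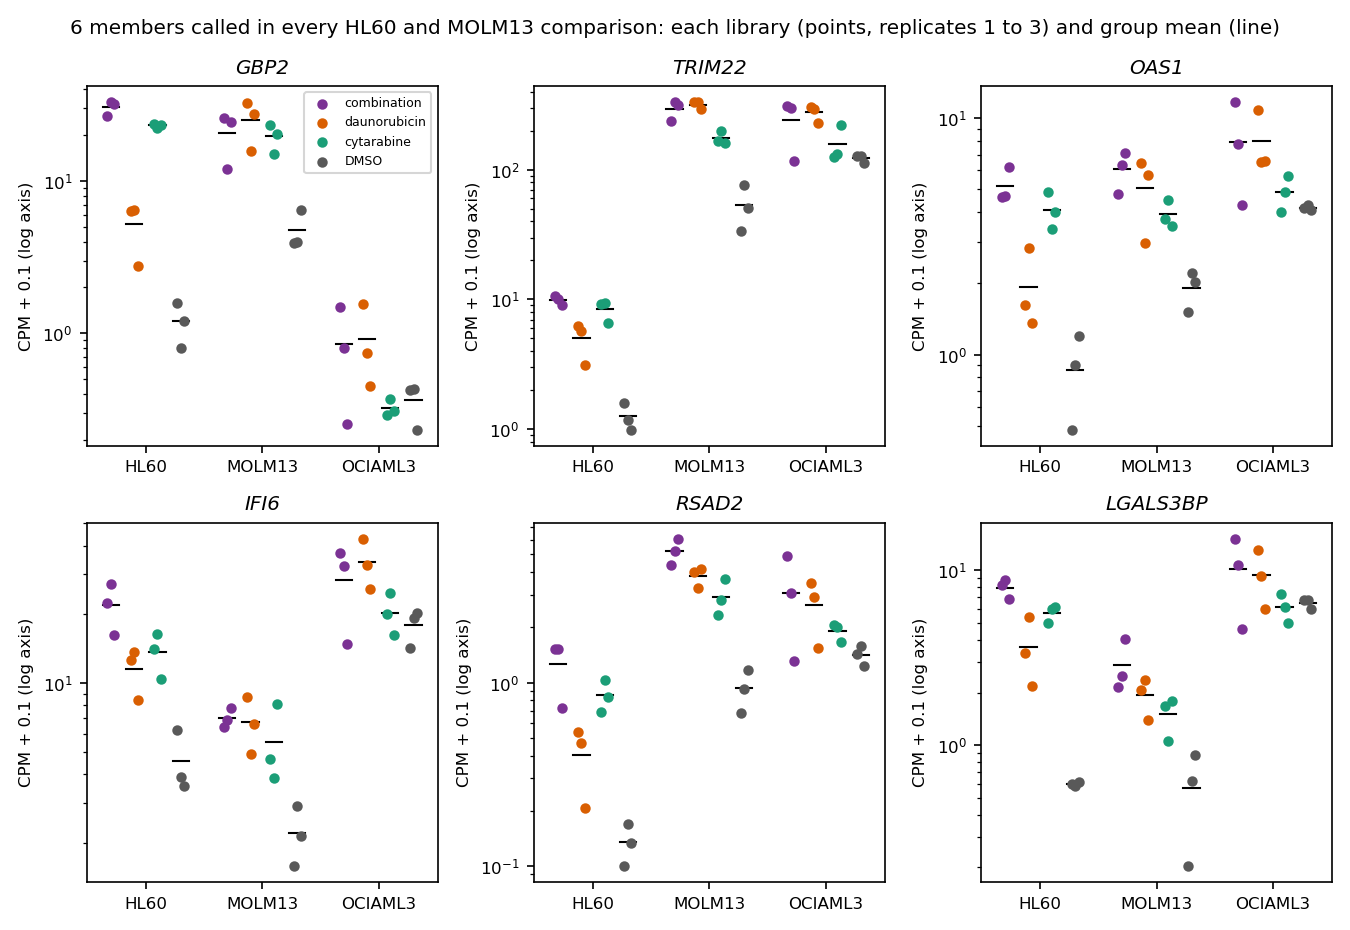
CPM + 0.1 on a log axis in each library (points) with the group mean (line) for the 6 members called in all HL60 and MOLM13 comparisons, by line and treatment. In HL60 and MOLM13 the DMSO points lie at the bottom, and in OCIAML3 combination replicate 3 lies with or below the DMSO points.

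In MOLM13, 14 of 39 tested members rose after cytarabine and 0 fell, against 7.11% and 1.03% of all tested genes. After daunorubicin 12 rose and 0 fell (11.3% and 5.71% of all genes). After the combination 16 rose and 1, USP18, fell (11.8% and 5.61%). The median log2 fold change of the members was 0.79, 0.80 and 0.75. The cytarabine count was 6 without DMSO replicate 1 and 8 without cytarabine replicate 3. CMPK2, GBP2, HERC6, RSAD2 and TRIM22 kept their cytarabine call under all alternatives tried.

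TRIM22 was the most abundant of the MOLM13 members that rose, with 165, 199 and 160 CPM after cytarabine, 330, 330 and 291 CPM after daunorubicin and 239, 330 and 317 CPM after the combination, against 33.4, 76.1 and 50.5 CPM in DMSO. Every treated library lay far above every DMSO library (log2 fold changes 1.71, 2.57 and 2.47, SE 0.24 each, edgeR adjusted p = 0.000345, 1.45e-05 and 2.06e-05). RSAD2 had 2.24, 2.70 and 3.54 CPM, then 3.92, 3.17 and 4.06 CPM, then 4.28, 5.11 and 5.96 CPM in the same order, against 0.586, 0.823 and 1.08 CPM in DMSO. The combination libraries were the highest and no treated library reached down to DMSO (log2 fold changes 1.76, 2.16 and 2.62, SE 0.26 each). GBP2 had 23.3, 15 and 20.3 CPM after cytarabine, 32.2, 15.5 and 27.6 CPM after daunorubicin and 25.9, 11.8 and 24.2 CPM after the combination, against 3.79, 3.89 and 6.32 CPM in DMSO. Replicate 2 was the lowest library in each treated group and still above DMSO (log2 fold changes 2.07, 2.43 and 2.15).

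The synthetases differed from each other in MOLM13. OAS2, the middle-sized synthetase, had 3.43, 1.39 and 4.18 CPM after cytarabine, 3.70, 0.951 and 3.52 CPM after daunorubicin and 4.16, 2.17 and 3.07 CPM after the combination, against 0.517, 0.560 and 1.04 CPM in DMSO. It rose in each comparison (2.07, 1.94 and 2.14), although daunorubicin replicate 2 lay within the DMSO range and the daunorubicin call was lost without daunorubicin replicate 1. OAS1 had 3.62, 4.42 and 3.39 CPM, then 6.35, 2.85 and 5.66 CPM, then 4.65, 6.21 and 7.01 CPM, against 1.41, 2.11 and 1.92 CPM in DMSO, and rose in each (1.07, 1.45 and 1.71), with the cytarabine call lost without DMSO replicate 1 or cytarabine replicate 2. OAS3 stayed at or below 3.20 CPM and passed after cytarabine and the combination (2.12 and 1.67) but not after daunorubicin (0.87, edgeR adjusted p = 0.242). The cytarabine call of OAS2 and OAS3 was lost without DMSO replicate 1, and that of OAS2 also without cytarabine replicate 3. The combination call of OAS3 was lost without any single DMSO library and without combination replicate 1 or 3.

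IFI6 had 4.54, 3.76 and 8.02 CPM after cytarabine, 8.60, 4.80 and 6.49 CPM after daunorubicin and 6.33, 6.76 and 7.66 CPM after the combination in MOLM13, against 1.48, 2.80 and 2.05 CPM in DMSO. It rose by 1.36, 1.65 and 1.71, and the cytarabine call was lost without cytarabine replicate 3. LGALS3BP had 1.57, 0.954 and 1.70 CPM, then 1.96, 2.26 and 1.30 CPM, then 2.05, 2.39 and 3.94 CPM, against 0.103, 0.527 and 0.773 CPM in DMSO. Its DMSO libraries were widely spread but below every treated library, and it rose by 1.57, 1.96 and 2.56, the first of these lost without DMSO replicate 1 or 2 or cytarabine replicate 1 or 3. IFI44 passed after cytarabine and the combination (2.48 and 1.85) at no more than 1.58 CPM, and both calls were lost without DMSO replicate 1, among others. IFI44L, its paralog, and EPSTI1, an epithelial-stromal interaction protein, passed in all 3 comparisons at means under 1 CPM (3.38, 3.20 and 3.67 for IFI44L and 2.74, 3.18 and 3.33 for EPSTI1). IFI44L lost all 3 calls with an offset for transcript length, and its cytarabine and daunorubicin calls without DMSO replicate 1 or 3, as did EPSTI1 after cytarabine. MX2, at the fold threshold, passed after the combination (1.00) and lost its call under 12 alternatives. MX1 passed after the combination (1.65), a call lost without DMSO replicate 2 or 3, without combination replicate 1 or with an offset for transcript length. After cytarabine MX1 did not pass, but passed with DESeq2 (1.30) and with the replicate block (1.20), and after daunorubicin likewise (1.25 and 1.19). SAMD9L, the paralog of SAMD9, rose by 1.04, 1.33 and 1.42, and STAT2 by 1.63 and 1.51 after daunorubicin and the combination, with 135, 134 and 128 CPM after daunorubicin, against 39.1, 46.4 and 43.1 CPM in DMSO.

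USP18 was the 1 member that fell past both thresholds in these comparisons with DMSO. In MOLM13 it had 2.88, 2.09 and 1.84 CPM after the combination and 2.79, 1.70 and 3.60 CPM after daunorubicin, against 4.38, 4.71 and 4.67 CPM in DMSO. After cytarabine it had 4.52, 5.40 and 4.82 CPM. The 3 combination libraries lay below every DMSO library (log2 fold change -1.01), but the call was lost without DMSO replicate 2 or 3 or combination replicate 2 or 3.

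In OCIAML3 with all libraries, the edgeR test called 0 members and 0 of all genes in each of the 3 comparisons (0% of 16650 genes). At an unadjusted p under 0.05 it gave 0 members with cytarabine, 24 with daunorubicin and 21 with both drugs, all of these higher, and DESeq2 called 0, 8 and 0. The lowest adjusted p of a member was 1, 0.122 and 0.209. Every treated library lay above every DMSO library for 4 members after cytarabine (4.59% of all genes), 25 after daunorubicin (22.8%) and 2 after the combination (7.78%). Leaving out combination replicate 3 alone gave 10 members after daunorubicin and 15 after the combination. Leaving out both libraries that stood apart gave 9 after daunorubicin (3.61% of all genes higher, 0.539% lower) and 14 after the combination (5.9% and 1.96%), all higher, and 0 after cytarabine, where 0 members had an unadjusted p under 0.05. With 2 libraries left in a group, the spread is taken from the other groups of the line.

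**Figure D4:**
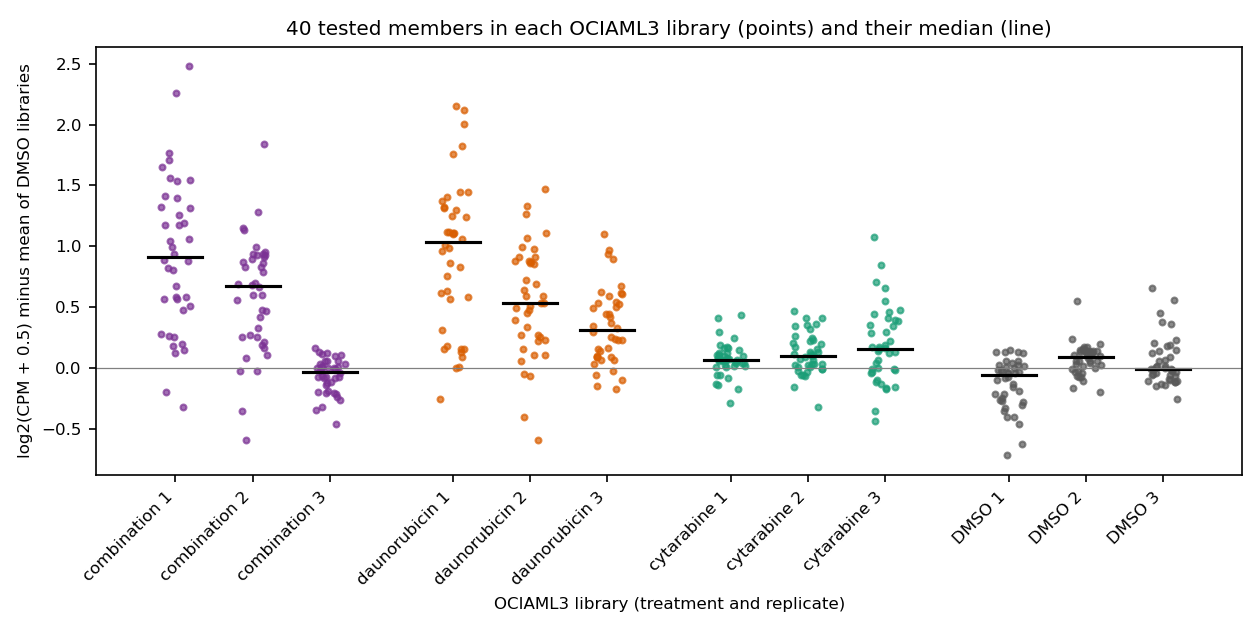
The difference of each of 40 tested members from the mean of the DMSO libraries, log2(CPM + 0.5), in each OCIAML3 library, with the median as a line. Combination replicates 1 and 2 have medians of 0.913 and 0.674 and replicate 3 of -0.033, the daunorubicin medians are 1.03, 0.535 and 0.315, and the cytarabine medians are 0.066, 0.100 and 0.159.

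TRIM22, next to BST2 in level in OCIAML3 DMSO libraries, had 126, 132 and 220 CPM after cytarabine, 306, 294 and 228 CPM after daunorubicin and 307, 299 and 117 CPM after the combination, against 127, 127 and 113 CPM in DMSO. Cytarabine replicate 3 was the high library of its group and combination replicate 3 lay within the DMSO range. With all libraries the log2 fold changes were 0.38, 1.17 and 0.97 (SE 0.32 each, edgeR adjusted p = 1, 0.122 and 0.209), and without the 2 libraries they were 0.07, 1.17 and 1.30 (SE 0.11, 0.10 and 0.11, edgeR adjusted p = 1, 0.000334 and 0.000247). The daunorubicin and DMSO libraries are the same in both fits, which differ in the spread between libraries.

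The IFIT genes, which lie side by side on chromosome 10 and bind viral RNA ends, all passed in OCIAML3 after the combination without the 2 libraries (4 of 4), and 3 of 4 after daunorubicin. IFIT2 had 1.79, 2.26 and 4.07 CPM after cytarabine, 8.91, 5.51 and 4.16 CPM after daunorubicin and 11.6, 7.26 and 1.24 CPM after the combination, against 1.37, 1.99 and 1.69 CPM in DMSO. Apart from combination replicate 3, which was the lowest library of all 12, the daunorubicin and combination libraries were all above DMSO. Without the 2 libraries the log2 fold changes were 1.87 ± 0.30 after daunorubicin and 2.47 ± 0.32 after the combination (SE, edgeR adjusted p = 0.00281 and 0.000673). IFIT1 had 7.52, 3.29 and 3.04 CPM after daunorubicin and 8.14, 2.93 and 1.30 CPM after the combination, against 0.814, 1.08 and 2.36 CPM in DMSO. Replicate 1 was far above the other 2 in both treatments, and without the 2 libraries IFIT1 rose by 1.71 and 1.97. In the same fit IFIT3 rose by 1.09 and 1.28, and IFIT5 by 1.03 after the combination.

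OASL, a synthetase-like protein that enhances RIG-I signaling, had 3.92, 2.63 and 1.89 CPM after daunorubicin and 3.74, 2.26 and 0.751 CPM after the combination in OCIAML3, against 0.879, 0.608 and 0.763 CPM in DMSO. Without the 2 libraries it rose by 1.91 ± 0.31 and 2.00 ± 0.33 (SE, edgeR adjusted p = 0.00303 and 0.00151). EPSTI1 had 3.19, 1.33 and 0.630 CPM after daunorubicin and 2.39, 1.25 and 0.419 CPM after the combination, against 0.261, 0.351 and 0.697 CPM in DMSO. Its daunorubicin replicate 3 lay within the DMSO range, and it rose by 1.98 and 2.06 without the 2 libraries. MX1 had 15, 7.94 and 6.82 CPM, then 14.5, 6.28 and 3.53 CPM in the same order, against 2.48, 4.68 and 5.81 CPM, and rose by 1.20 and 1.26. RSAD2 and GBP2 passed only after the combination without the 2 libraries (1.55 and 1.94), with GBP2 at or below 1.46 CPM in every OCIAML3 library. Of the members near the top in OCIAML3 DMSO, MX2 had 82.3, 77.2 and 79.0 CPM after daunorubicin and 80.8, 72.9 and 79.9 CPM after the combination, against 75.4, 74.8 and 71.9 CPM in DMSO, and BST2 did not pass either.

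Set side by side, GBP2, IFI6, LGALS3BP, OAS1, RSAD2 and TRIM22 rose in all 6 comparisons of HL60 and MOLM13. The comparisons within a line share their DMSO libraries. In at least 1 comparison 22 members rose in HL60 and 17 in MOLM13, and 13 rose in both, which is 13 of the 22 and 13 of the 17. Of all tested genes, 18.3% rose in at least 1 HL60 comparison and 15.1% in at least 1 of MOLM13, and 7.25% of those tested in both lines rose in both, which is 36.1% of the genes that rose in HL60 and 42% of those that rose in MOLM13. USP18, which rose in HL60 and fell in MOLM13, is not among the 13, and EPSTI1, IFI44L and OAS2, which rose in MOLM13, were too low to be tested in HL60. Without the 2 OCIAML3 libraries, GBP2, MX1, OAS1, RSAD2, STAT2 and TRIM22 rose in at least 1 comparison of every line. IFIT1, IFIT2, IFIT3 and OASL passed in OCIAML3 and not in the other lines by these thresholds, but in HL60 after the combination IFIT2 and OASL passed with the replicate block, and IFIT2, IFIT3 and OASL without DMSO replicate 1 (2.25, 1.12 and 3.30). In MOLM13 OASL passed after daunorubicin without daunorubicin replicate 2 (1.47). These calls do not show that their responses differ between the lines, since OCIAML3 was not in the test of that difference. A group of 9 members was tested in every line and passed in none of these comparisons (BST2, DTX3L, EIF2AK2, IFIH1, ISG15, PARP9, PLSCR1, SAMD9 and SP100). PARP14 was too low to be tested in HL60, IFI27 in HL60 and MOLM13, and IRF7 in any line.

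The difference of the response itself was tested between HL60 and MOLM13, as an interaction over all 36 libraries. After cytarabine 6 members had the higher response in HL60 and 1 the lower (3.37% and 0.625% of all genes), after daunorubicin 4 and 2 (5.9% and 2.31%), and after the combination 9 and 1 (10.4% and 3.21%). Of the members past both thresholds, USP18 had the largest difference after the combination, by 3.44 ± 0.36 on the log2 scale (SE, edgeR adjusted p = 5.48e-08). It had 10.8, 10.0 and 9.97 CPM after the combination in HL60, against 2.52, 1.88 and 1.65 CPM in DMSO, where MOLM13 moved the other way as given above. GBP2 differed by 2.39 ± 0.62 after cytarabine and 2.73 ± 0.62 after the combination, XAF1 by 2.08 ± 0.40 and 2.34 ± 0.40, and CMPK2 by 1.38 ± 0.28, 1.29 ± 0.28 after daunorubicin and 2.54 ± 0.28 after the combination. CMPK2 in MOLM13 had 17.1, 20.2 and 20.3 CPM after cytarabine but 11.4, 7.13 and 10.2 CPM after the combination, against 8.62, 9.68 and 8.68 CPM in DMSO, so the combination overlapped DMSO there. IRF1 had 97.5, 97.3 and 84.4 CPM after the combination in HL60, against 35.6, 39.0 and 37.7 CPM in DMSO. In MOLM13 it had 38.8, 41.0 and 44.3 CPM after the combination, against 42.8, 33.3 and 38.6 CPM in DMSO (difference 1.29 ± 0.16, edgeR adjusted p = 9.29e-07).

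In this fit the SAMD9 paralogs were the members called with the higher response in MOLM13. SAMD9 had 37.6, 39.6 and 37.4 CPM after cytarabine in MOLM13, against 24.3, 27.9 and 23.8 CPM in DMSO, while in HL60 every cytarabine library lay below every DMSO library. The HL60 minus MOLM13 difference was -1.45 ± 0.27 with cytarabine, -1.10 ± 0.26 with daunorubicin and -1.43 ± 0.27 with both drugs (SE, edgeR adjusted p = 0.000666, 0.00381 and 0.000153). SAMD9L differed after daunorubicin by -1.34 ± 0.32. Under other settings BST2 was also called after the combination (-1.05 with DESeq2, -1.01 with the replicate block). STAT2 was called after daunorubicin with DESeq2 (-1.01). In the other direction, LGALS3BP after cytarabine was called with DESeq2 (1.94) and the block (1.92). The block also called RSAD2 after cytarabine (2.58) and PARP14 after the combination (3.66). The daunorubicin difference counted 3 members without HL60 daunorubicin replicate 1 in place of 6, with CMPK2, SAMD9L and USP18 called under all alternatives.

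**Figure D5:**
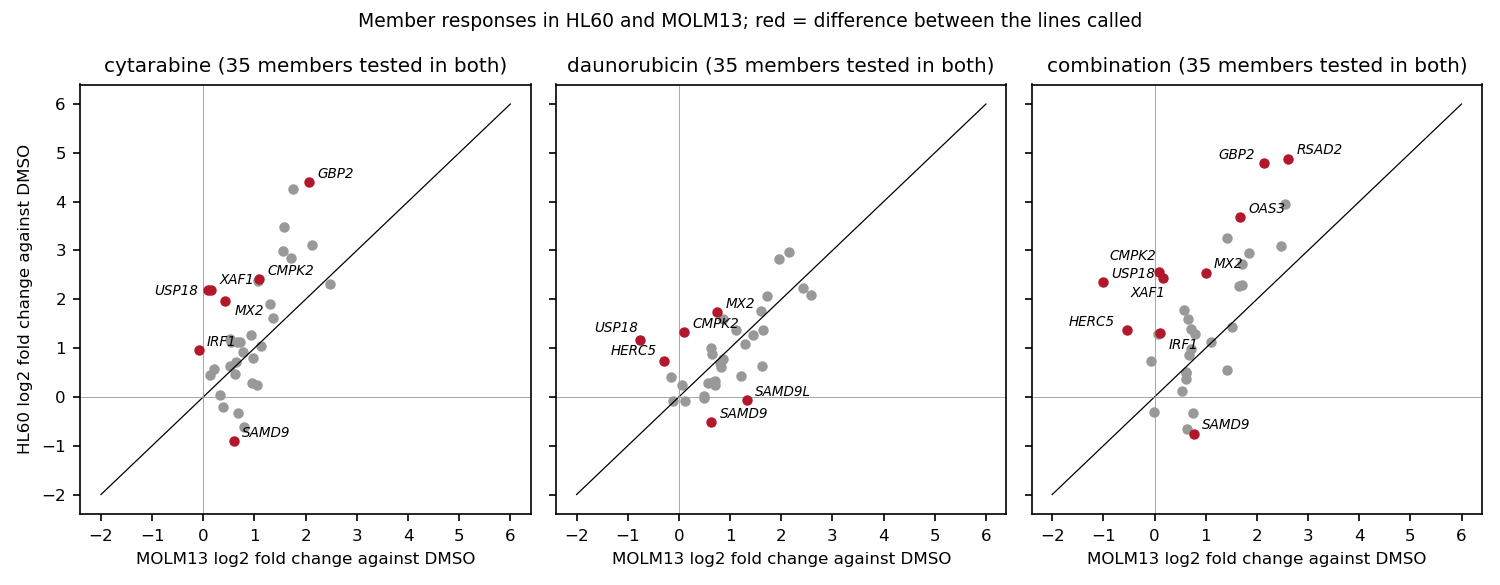
The log2 fold change against DMSO in HL60 (vertical axis) and MOLM13 (horizontal axis) of the 35 members tested in both lines, for cytarabine, daunorubicin and the combination. The line marks equal responses and red points are members whose response differed between the lines. USP18, CMPK2 and MX2 lie above the line and SAMD9 below it for each treatment, and GBP2 lies above it except after daunorubicin.

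For several members the combination lay below the sum of the single-drug effects on the log2 scale. Non-additivity was taken as the combination's log2 change from DMSO minus the summed changes of cytarabine and daunorubicin. In HL60 0 members were above additivity and 4 below (0.25% and 2.83% of all genes): LGALS3BP by -2.34 ± 0.42, TRIM22 by -1.84 ± 0.38, GBP2 by -1.83 ± 0.41 and CMPK2 by -1.20 ± 0.30 (SE, edgeR adjusted p = 0.00814, 0.017, 0.0221 and 0.0349). LGALS3BP kept its call under all alternatives, while the count was 1 without daunorubicin replicate 1 or 2 or DMSO replicate 3 and 2 without DMSO replicate 2. With the replicate block, OAS3 (-1.03, edgeR adjusted p = 0.0195) and MX2 (-1.14, 0.00588) were also called. In MOLM13 0 were above and 5 below (0.809% and 4.56%): GBP2 by -2.35 ± 0.48, TRIM22 by -1.81 ± 0.33, RSAD2 by -1.30 ± 0.35, HERC6 by -1.23 ± 0.24 and CMPK2 by -1.10 ± 0.29 (SE, edgeR adjusted p = 0.00749, 0.00439, 0.0255, 0.00658 and 0.0223). The MOLM13 count was 11 without daunorubicin replicate 2 and 3 without DMSO replicate 1, daunorubicin replicate 1 or 3, cytarabine replicate 3 or combination replicate 2, and GBP2, HERC6 and TRIM22 kept their call throughout. TRIM22 in MOLM13 shows the shape, with combination libraries of 239 to 330 CPM inside or below the range of daunorubicin alone, 291 to 330 CPM. In OCIAML3 the edgeR test called 0 members (0% of all genes), none had an unadjusted p under 0.05, and DESeq2 called 0.

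The rest of the interferon pathway was counted in lists chosen by role. None of the 21 interferon ligand genes passed the filter on low counts in any line, and the highest library value was 0.293 CPM, for IFNB1 in HL60 after cytarabine. Of the receptor subunits and signal chain, IFNGR2, a subunit of the type II receptor, rose in HL60 after the combination (1.15), to 125 ± 17.8 CPM, against 56.6 ± 1.02 CPM in DMSO (SD, n = 3 each), and no other reported gene of this list passed in any line. In DMSO libraries the type I receptor subunits IFNAR1 and IFNAR2 averaged 66.3 and 25.6 CPM in HL60, 69.5 and 52.4 CPM in MOLM13 and 66.1 and 70.0 CPM in OCIAML3, so receptor RNA was present in each line. In HL60, IFNAR1 averaged 65.2 ± 12.4 CPM after the combination and 66.3 ± 2.53 CPM in DMSO (SD, n = 3 each). Of the nucleic acid sensors and adaptors, 7, 5 and 7 of 14 rose in HL60 after cytarabine, daunorubicin and the combination (50%, 35.7% and 50%, against 13.7%, 6.76% and 17% of all genes). In MOLM13 4, 6 and 4 of 15 rose (26.7%, 40% and 26.7%, against 7.11%, 11.3% and 11.8%), and in OCIAML3 without the 2 libraries 0, 1 and 3 of 15 (0%, 6.67% and 20%, against 0%, 3.61% and 5.9%). IFI16, a DNA sensor, rose in HL60 by 2.37, 1.54 and 2.41, and in MOLM13 by 1.05, 1.72 and 1.59. RIGI, the sensor RIG-I, rose in HL60 after cytarabine and the combination (1.66 and 1.98) and in MOLM13 after daunorubicin and the combination (1.55 and 1.62).

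Of the feedback inhibitors and nucleases, SOCS1, which binds JAK kinases, rose in HL60 by 2.70, 1.73 and 3.14 after cytarabine, daunorubicin and the combination, in MOLM13 by 1.22 and 1.16 after the single drugs, and in OCIAML3 without the 2 libraries by 2.16 and 1.89 after daunorubicin and the combination. RNASEH2A, a subunit of the nuclease that removes RNA from RNA:DNA hybrids, fell in MOLM13 after daunorubicin and the combination (-1.74 and -1.71). Of the antigen presentation genes, 2, 0 and 2 of 10 rose in HL60 (20%, 0% and 20%) and 0, 2 and 1 of 12 in MOLM13 (0%, 16.7% and 8.33%), beside the shares of all genes given above. In HL60 these were HLA-B, a class I heavy chain (1.03 and 1.31 after cytarabine and the combination), and TAP1, a peptide transporter subunit (1.13 and 1.33). In MOLM13 they were HLA-B after daunorubicin and the combination (1.35 and 1.41) and HLA-E after daunorubicin (1.02), and in OCIAML3 without the 2 libraries TAP1 rose after the combination (1.08). Among other interferon-stimulated genes, 2, 2 and 2 of 20 rose in HL60 and 1, 0 and 4 fell. Thus 10% rose in each comparison, below the share of all genes after cytarabine and the combination. The shares that fell were 5%, 0% and 20%, against 3.12%, 0.538% and 6.29% of all genes. In MOLM13 3, 4 and 6 of 23 rose (13%, 17.4% and 26.1%) and 0 fell. CXCL10, a chemokine that draws T cells, lay between 4.73 and 14.5 CPM after cytarabine and between 2.80 and 8.71 CPM after the combination in HL60, against 0 CPM after daunorubicin and at most 0.0343 CPM in DMSO. It was not called in the other lines, and its fold is not given because DMSO held 1 count. IFITM2, a membrane restriction factor, fell in HL60 after cytarabine and the combination (-1.04 and -1.43), with 117 ± 8.30 and 89.6 ± 18.7 CPM, against 242 ± 34.0 CPM in DMSO (SD, n = 3 each). After the combination IFITM1, ZC3HAV1 and TRIM14 averaged 70.8, 71.1 and 50.5 CPM in HL60, against 164, 145 and 111 CPM in DMSO.

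Some members could be read only in part. IRF7, a master regulator of type I interferon, was listed at 0 in every library but OCIAML3 cytarabine replicate 2 (0.119 CPM), although 15 of its 17 transcripts were listed. Other members had part of their transcripts listed, with 3 of 13 for IFI27, 1 of 4 for USP18, 11 of 18 for TRIM22 and 24 of 42 for STAT2. The exons of 16 members overlap another annotated gene, 13 of them on the opposite strand, where unstranded reads cannot be told apart. These include PARP9 and DTX3L, which act as a complex and whose starts lie 239 bases apart, and MX1, IFIT2 and IFIT3, which overlap TMPRSS2 or LIPA.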

How the data were processed

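Per the labels and the study's methods, the authors checked reads with FastQC 0.11.9 and ran Salmon 1.8.0 on Ensembl's GRCh38 transcripts, with the genome as decoy, and deposited 1 file per library with estimated counts per transcript and TPM, which Salmon scales by effective length. The Ensembl release is not given in the sources used here. Estimated counts were summed per gene by transcript ID with GENCODE 44 and rounded. Of 252199 transcripts 16821 did not match, holding 3.99% to 4.52% of the counts. The libraries were unstranded.

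Genes were filtered with filterByExpr (minimum count 10, minimum total 15), scaled by TMM and tested with edgeR 4.0.16 (quasi-likelihood, R 4.3.3), with Benjamini-Hochberg adjustment over all tested genes. CPM values are scaled within a line, except the DMSO means of members set between lines, which come from the fit of all 36 libraries. The marker sums and the IFNAR1 and IFNAR2 levels are scaled within a line, also where lines stand side by side. Calls needed an adjusted p under 0.05 plus a log2 change above 1 in either direction. This left 15608 genes in HL60, 16184 in MOLM13, 16650 in OCIAML3 and 19053 over all lines, with 36, 39, 40 and 41 members among them. The test of cytarabine against DMSO in each line was run on simulated counts, and the other tests were not. The text "without the 2 libraries" always means without OCIAML3 cytarabine replicate 3 and combination replicate 3. Replicate numbers were taken to pair HL60 libraries, since all 18 correlations of same-numbered libraries were over 0.1 (0.105 to 0.382), a hint from the values, as no label states a pairing. Alternatives were DESeq2 1.42.0, RLE scaling, no filter, a replicate block, a transcript length offset, each library left out in turn and, in OCIAML3, 2 libraries left out together. Leaving out libraries outside the groups compared was added after seeing the data. The figures used matplotlib 3.10.9.

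The members, the pathway lists and the tests were chosen with earlier results of these data known. In the list of receptors and signal chain, 1 gene is not reported here. Values in every library are given for up to 6 called members per comparison with the largest change and a mean of at least 1 CPM, for the 6 with the highest TPM in DMSO libraries of each line, and for up to 4 members per treatment that differed most between HL60 and MOLM13. Other members named with values (among them GBP1, RSAD2 in HL60, IFIT1, PARP14 and the members that were not called) were chosen after their values were seen.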

Additional observations from a re-analysis of the deposited data

Results flagged for a closer look

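The responses listed here differed between HL60 and MOLM13 in the interaction test, as HL60 minus MOLM13 on the log2 scale. After cytarabine they were USP18 (2.14), MX2 (1.60), GBP2 (2.39), CMPK2 (1.38), IRF1 (1.10), XAF1 (2.08) and SAMD9 (-1.45). After daunorubicin they were HERC5 (1.08), USP18 (1.99), MX2 (1.04), CMPK2 (1.29), SAMD9 (-1.10) and SAMD9L (-1.34). After the combination they were OAS3 (2.09), HERC5 (2.00), USP18 (3.44), MX2 (1.64), GBP2 (2.73), RSAD2 (2.35), CMPK2 (2.54), IRF1 (1.29), SAMD9 (-1.43) and XAF1 (2.34). Some of these calls were lost under at least 1 alternative. They were IRF1 after cytarabine, HERC5, MX2 and SAMD9 after daunorubicin and RSAD2 after the combination. RSAD2 also had only 3 counts over the HL60 DMSO group.

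For BST2 after cytarabine and after the combination, and for SAMD9 after daunorubicin, the treated libraries all lay below DMSO in HL60 and all above DMSO in OCIAML3. The log2 fold change of BST2 was -0.34 in HL60 and 0.10 in OCIAML3 after cytarabine, and -0.32 in HL60 and 0.16 in OCIAML3 after the combination. That of SAMD9 after daunorubicin was -0.52 in HL60 and 0.74 in OCIAML3. Without the 2 OCIAML3 libraries, BST2 had 240 and 247 CPM after cytarabine and 259 and 283 CPM after the combination. Its DMSO libraries lay at 231 to 237 CPM in that fit. With all OCIAML3 libraries, 4.59%, 22.8% and 7.78% of all genes lay above DMSO in this way after cytarabine, daunorubicin and the combination. No such share is given for HL60, and the differences between HL60 and OCIAML3 were not tested.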

How the results depend on the processing

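Of 180 calls of members over all comparisons, 132 passed under every alternative tried, 48 were lost under at least 1, and 0 reversed. With DESeq2 the OCIAML3 daunorubicin comparison had 8 calls in place of 0. Without OCIAML3 cytarabine replicate 3 and combination replicate 3, daunorubicin had 9 and the combination 14 in place of 0. Leaving out each library in turn gave 6 to 15 calls for MOLM13 cytarabine, 0 to 10 for OCIAML3 daunorubicin, 0 to 15 for the OCIAML3 combination, 1 to 6 for non-additivity in HL60, 3 to 11 for non-additivity in MOLM13 and 3 to 6 for the daunorubicin difference between HL60 and MOLM13. The OCIAML3 counts above 0 came without combination replicate 3, the lowest MOLM13 cytarabine count without DMSO replicate 1, and the cause was not tested. With the replicate block the counts were 20, 12 and 24 in HL60, 15, 14 and 17 in MOLM13 and 0 in OCIAML3 after cytarabine, daunorubicin and the combination. The block lost 4 calls, all of DMSO levels: EIF2AK2 and STAT2 between HL60 and MOLM13, and IFI44L and PLSCR1 between MOLM13 and OCIAML3. Same-numbered libraries correlated above 0.1 in 4 of 18 pairs in MOLM13 (-0.011 to 0.390) and 6 of 18 in OCIAML3 (-0.283 to 0.484). The numbers were not taken as a pairing in these lines, and no label settles whether they are. Members with means under 1 CPM, such as IFI44 in HL60 and IFI44L and EPSTI1 in MOLM13, rest on few reads. GBP1 in HL60 averaged 1.22 CPM after the combination, but its folds rest on 1 count over the DMSO group.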

Other observations

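AIM2, a cytosolic DNA sensor from the list of nucleic acid sensors, passed in HL60 after cytarabine, with 0.342 to 0.521 CPM, and after the combination, with 0.535 to 0.937 CPM, against at most 0.0763 CPM in DMSO, too few reads to give a fold. In MOLM13 it rose after cytarabine (2.63 on the log2 scale) and daunorubicin (2.41). TLR8, an endosomal RNA sensor, rose in MOLM13 by 3.20, 2.63 and 2.55 after cytarabine, daunorubicin and the combination, and in OCIAML3 without the 2 libraries that stood apart by 1.90 and 2.37 after daunorubicin and the combination. SOCS3, a feedback inhibitor of cytokine receptors, rose in HL60 by 3.01, 1.65 and 3.18 and in MOLM13 by 1.08, 1.08 and 1.09 after the 3 treatments. AIM2 and, in MOLM13, TLR8 stayed under 1 CPM in every library of these comparisons and were named after their values were seen.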
